A study of Mus musculus with 27 samples.

Results

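Chemokines and their receptors were followed through mouse aorta after 28 days of angiotensin II (Ang II), a pressor hormone used to induce hypertension and vascular fibrosis. Members were chosen by gene symbol alone: every annotated Ccl, Cxcl, Ccr, Cxcr or Ackr gene with a number, plus Xcl1, Xcr1, Cx3cl1 and Cx3cr1. The rule found 60 members among 42373 genes in the bulk RNA tables and the same 60 among 32245 genes in the single-cell matrices. They comprised 38 ligands, 18 signalling receptors and 4 atypical receptors.

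The study's title concerns KLF10, a transcription factor, and the cytokine IL-9 in CD4+ T cells. C57BL/6 mice labelled Cre were compared with mice labelled TKO, and all animals of both genotypes received Ang II. Bulk RNA came from non-stripped aorta (3 Cre and 3 TKO libraries), stripped aorta (4 Cre and 2 TKO) and aortic fibroblasts (3 Cre and 3 TKO). In the remaining bulk table, non-stripped aorta of TKO mice given an IgG control antibody (3 libraries) was set against TKO mice given anti-IL-9 antibody (2 libraries). Digested non-stripped aorta of 2 Cre and 2 TKO samples was profiled as single cells. Neither genotype name is spelled out in the labels, nor is the promoter that drives the recombinase or what stripping removed. They also do not say whether each library came from its own animal, so p-values measure only the spread between these libraries, which may be technical.

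Chemokines are small secreted proteins, with a few tethered to the membrane, that guide leukocytes along gradients. Signalling receptors couple to inhibitory G proteins and move the cell, whereas atypical receptors bind chemokines without that coupling and scavenge or carry them. In the artery wall, macrophage and fibroblast chemokines recruit monocytes through CCR2 and neutrophils through CXCR2, CXCL12 holds CXCR4-bearing cells near stroma, and CCL21 draws CCR7-bearing dendritic and T cells into lymphatic vessels.

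The 23 bulk libraries held 17179257 to 38633457 counts assigned to named genes. The 4 single-cell libraries kept 6533 to 15365 cells, at median depths of 1409 to 2768 UMIs (unique molecular identifiers, counts of single captured RNA molecules) per cell. Pairs of single-cell libraries shared 175 to 338 cell barcodes, of which 12 to 68 were kept cells in both. Klf10 itself was at 40.7 to 65.8 CPM (counts relative to the scaled library total) in non-stripped Cre aorta and at 41.3, 35.4 and 0 CPM in the TKO aortas, so 1 of the 3 TKO libraries had none and the others overlapped the Cre range or lay just under it. In fibroblasts it was at 61.0 to 73.3 CPM against 58.3 to 71.2 CPM. The labels do not say in which cells the TKO genotype acts, so Klf10 of a whole tissue checks them only in part, and the TKO library at 0 (replicate 3) stands apart from its group. The fibroblast libraries carried the defining fibroblast genes at a summed 3970 to 8357 CPM and also macrophage markers at a summed 153.7 to 565.9 CPM. The titles of the stripped samples call them non-stripped while their other fields call them stripped, and adipocyte markers summed to 901.4 to 3296 CPM there against 9615 to 12980 CPM in the non-stripped table.

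Most members lie in gene clusters. Chromosome 11 holds 12 ligands and 2 receptors, chromosome 5 holds 10 ligands, and chromosome 9 holds 13 receptors (GRCm38 positions, GENCODE annotation). On chromosome 5 the neutrophil attractants that signal through CXCR2 lie in 1 cluster: Cxcl5 at chr5:90759360-90761624, Cxcl3 at chr5:90786103-90789600, Cxcl1 at chr5:90891241-90893115 and Cxcl2 at chr5:90903871-90905938, with the epithelial ligand Cxcl15 between Cxcl3 and Cxcl1. These genes varied together among the fibroblast libraries, as described further on. Their promoters were therefore searched, on both strands over the 250 bases before each gene's start in RefSeq (GRCm38.p6), for 3 motifs of inflammatory transcription factors. The κB-type site GGAATTTCC was found in 94 of 32851 promoters (0.286%) and in 5 of 52 member promoters, namely Cxcl1, Cxcl2, Cxcl3, Cxcl10 and Ccr3. The first 3 are printed over 120 bases on the plus strand, 5′ to 3′, with that site in capitals, since it is a letter string that these 3 promoters share.
Cxcl1 (chr5:90891125-90891244): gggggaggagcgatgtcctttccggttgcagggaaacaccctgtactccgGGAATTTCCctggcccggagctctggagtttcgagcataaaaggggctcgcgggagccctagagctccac
Cxcl2 (chr5:90903779-90903898): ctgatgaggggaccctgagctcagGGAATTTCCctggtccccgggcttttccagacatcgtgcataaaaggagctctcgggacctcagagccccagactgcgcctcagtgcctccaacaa
Cxcl3 (chr5:90785981-90786100): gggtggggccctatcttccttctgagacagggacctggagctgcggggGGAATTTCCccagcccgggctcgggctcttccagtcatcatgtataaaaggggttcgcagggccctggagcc

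The site began 70 bases before the start in Cxcl1, 96 in Cxcl2 and 72 in Cxcl3. The AP-1-type motif TGANTCA was in 6.75% of promoters and in 6 of 52 member promoters, and the interferon-type motif GAAANNGAA in 7.13% and in 8 of 52. Neither of these was found in Cxcl1, Cxcl2 or Cxcl3, while the interferon-induced Cxcl10 had all 3 motifs. A match is only a description of the letters, and the motifs were not searched in Cxcl5, Ccl2 or Ccl7.

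Where each member was transcribed in the vessel was read from the single-cell libraries, whose clusters were built without the members. Of 39546 cells, 26712 (67.547%) fell in 31 clusters that carried markers of 1 of 16 cell types and were called by that type with the suffix "-like". The remaining 19 clusters were left unnamed. Of these classes, 14 had at least 20 cells in every library. Levels in single cells are CPM of the UMIs summed over the cells of a class, given as mean ± SD of 4 libraries, and since the kit counts the 3′ end they need no length correction. The members with at least 50 UMIs numbered 47. The highest of the 14 classes was macrophage-like for 10, monocyte-like for 7, dendritic cell-like for 6, adipocyte-like for 6 and T cell-like for 5. It was B cell-like, fibroblast-like or lymphatic endothelial-like for 3 each. The same class was highest in all 4 libraries for 23 of the 47, and its 4 values stood clear of those of the second class for 15. Mast cell-like cells, neutrophil-like cells and the unnamed clusters were left out of this ranking. The same holds wherever a class is said to lead or be highest. Cxcr2, for example, counts as monocyte-like at 2.29 CPM, while neutrophil-like cells averaged 365 CPM. At 0 UMIs were 4 members, Ccl21b, Ccl21c, Ccl26 and Ccl27b, of which Ccl21b, Ccl21c and Ccl27b are near-identical copies of other members whose reads cannot be assigned with certainty.

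**Figure D1:**
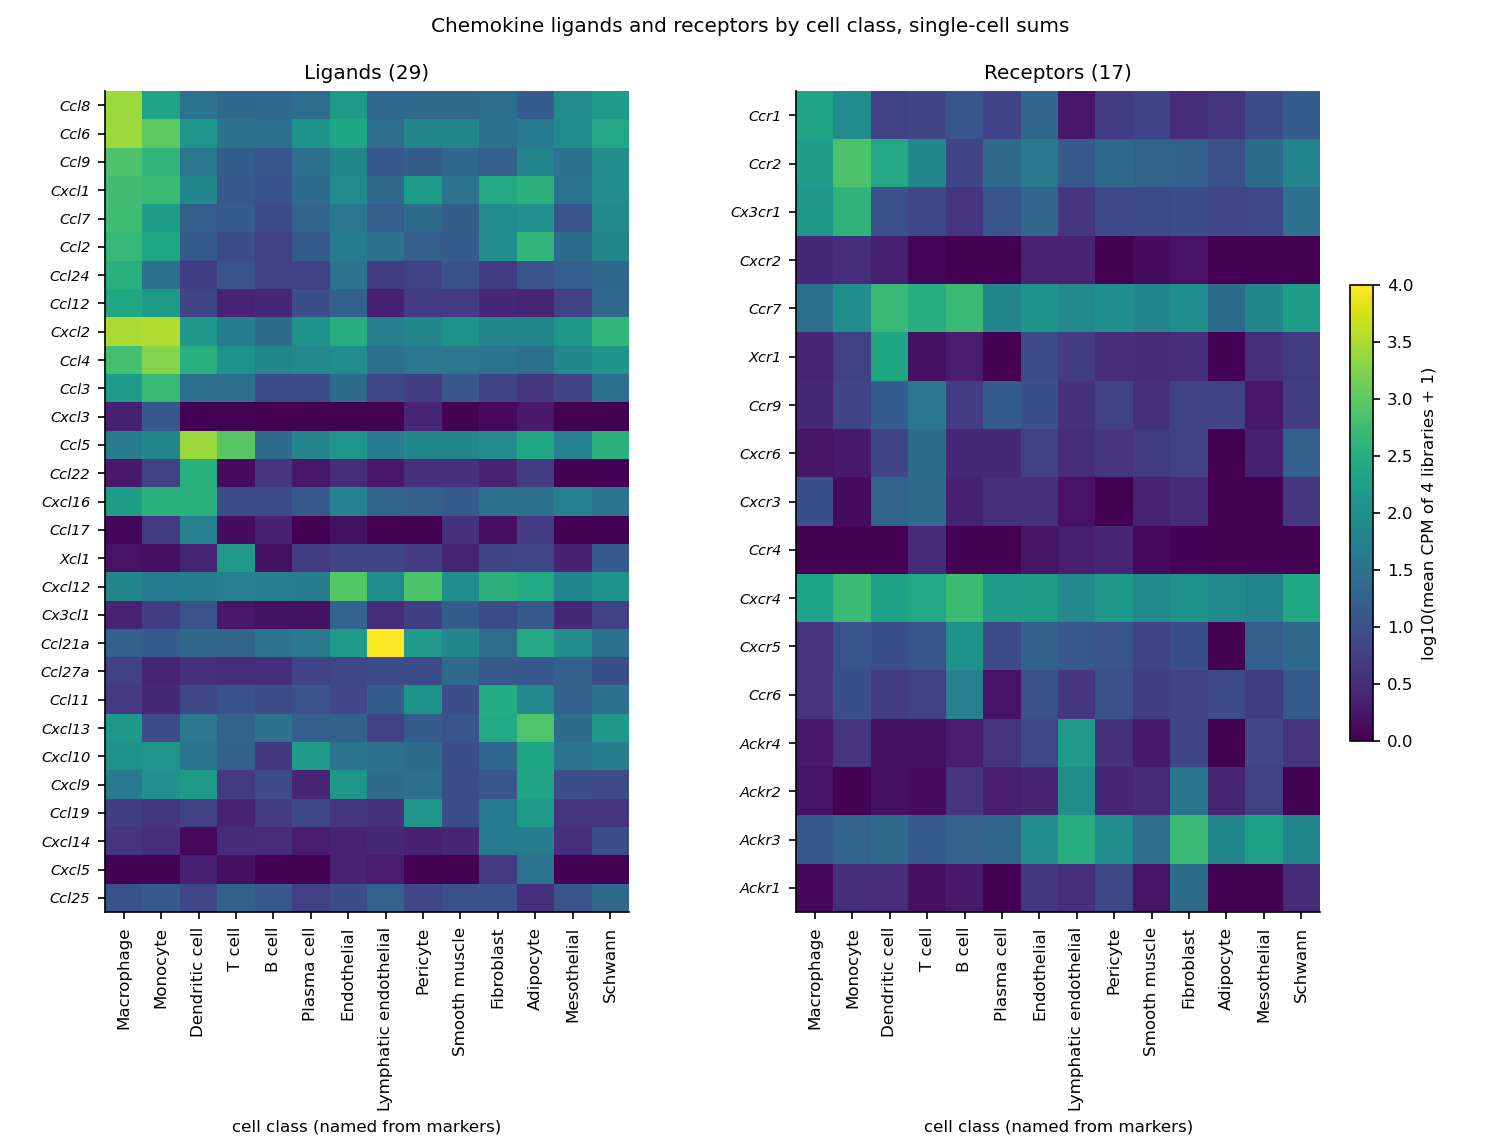
Heat map of chemokine ligands (29) and receptors (17) with at least 50 UMIs, in rows, across 14 single-cell classes, in columns; colour gives log10 of the mean CPM of 4 libraries plus 1, and the scale ends at 4. Macrophage-like and monocyte-like columns are bright for CCL ligands, Ccl21a peaks in lymphatic endothelial-like cells and Cxcl12 in endothelial-like and pericyte-like cells.

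Lymphatic endothelium was the main source of Ccl21a. This ligand of CCR7, which draws cells into lymphatics, stood at 13250 and 11580 CPM in lymphatic endothelial-like cells of the Cre libraries and at 7395 and 9410 in those of the TKO libraries (mean 10410 ± 2553). The other classes of the 14 averaged at most 255.9, which is 40.7-fold lower, and lymphatic endothelial-like cells held 81.8% to 92.5% of the Ccl21a UMIs of all clustered cells in each library. The bulk tables hold 1 Ccl21a count in all libraries together, and since its copies are near identical, this count cannot be read as its level. The same class led for the scavenger receptors Ackr4, which removes CCR7 ligands (142 ± 87.3), and Ackr2, which removes inflammatory CC chemokines (94.9 ± 43.2). For Ackr2 this lead (39.9 to 140.8) overlapped fibroblast-like cells (17.2 to 49.6).

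Fibroblast-like cells led for Ackr3, the scavenger of CXCL12 (530 ± 170, with 670 and 669 in Cre and 323 and 458 in TKO), for the eotaxin Ccl11 (298 ± 174) and for Ackr1, which binds many inflammatory chemokines. Ackr1 was low, at 35.6 and 27.3 in Cre and 17.9 and 19.1 in TKO, yet fibroblast-like cells held 65.6% to 74.1% of its UMIs and endothelial-like cells averaged 3.48. Cxcl12, the ligand of CXCR4, was highest in endothelial-like (867 ± 182) and pericyte-like cells (742 ± 170), whose values overlapped, and was 368 ± 167 in fibroblast-like cells. By mean, Ackr3 and its ligand thus had different leading classes, although the Ackr3 lead overlapped lymphatic endothelial-like cells (244 to 373). Adipocyte-like cells had the highest mean of Cxcl13, the B cell attractant, but with a spread as large as the mean (784 ± 892), and also carried Ccl2 (426 ± 598), Cxcl1 (376 ± 364) and Ccl19 (162). Endothelial-like cells had the highest mean of the membrane-bound Cx3cl1 (18.1 ± 9.96), though in 1 library of 4 only and overlapping smooth muscle-like cells (14.4), and smooth muscle-like cells had that of Ccl27a (22.8 ± 2.35), overlapping mesothelial-like cells (15.7). Mesothelial-like, pericyte-like and plasma cell-like cells led for none of the 47.

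Macrophage-like cells carried the CCR1 ligands Ccl6 (2548 ± 352) and Ccl9 (758 ± 108), against 983 and 411 in monocyte-like cells. They also led for Ccl8, a CCR8 ligand in mice (2562 ± 1439 against 218), and for the eotaxin Ccl24 (328 ± 122). Among the 14 classes they led for the CCR2 ligands Ccl2 (463 ± 213), Ccl7 (566 ± 218) and Ccl12 (248 ± 110) and the receptor Ccr1 (219 ± 75.7). Outside those classes, mast cell-like cells averaged 630 ± 194 of Ccl2 and neutrophil-like cells 362 ± 300.5 of Ccr1. Both means are above the macrophage-like ones but come from as few as 4 and 10 cells in a library. On chromosome 11 the genes Ccl2 (82035571-82037453), Ccl7 (82045712-82047525), Ccl11 (82057823-82062955), Ccl12 (82101845-82103400) and Ccl8 (82115185-82116799) are neighbours. Their leading class by mean nevertheless differed, with Ccl11 highest in fibroblast-like cells and the genes on either side of it highest in macrophage-like cells. Some of these leads overlapped the second class: Ccl2 averaged 426 in adipocyte-like, Ccl12 149.5 in monocyte-like and Ccl11 107.7 in pericyte-like cells. Cxcl2 was shared between monocyte-like (3360 ± 696), macrophage-like (3149 ± 672) and neutrophil-like cells (3380 ± 2163). Monocyte-like cells led for Ccl4 (1842 ± 742), Ccl3 (495 ± 283), Ccr2 (743 ± 300), the receptor for monocyte exit from marrow, and Cx3cr1 (392 ± 289).

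Dendritic cell-like cells led for Ccr7 (516 ± 236), Xcr1 of cross-presenting dendritic cells (225 ± 77.7), the CCR4 ligands Ccl22 (363 ± 258, 72.2-fold above the next class) and Ccl17 (56.1 ± 44.0), the tethered Cxcl16 (359 ± 111) and Ccl5 (2473 ± 2587). The Cxcl16 lead was slight, with an overlapping 353 in monocyte-like cells. The Ccl5 mean rests on TKO library 1, at 6246 against 480, 1963 and 1205 in the others. T cell-like cells had Ccl5 at 903 ± 490, led for Xcl1 (138 ± 72.1), the partner of Xcr1, and carried Cxcr6 (24.98) and Cxcr3 (23.0). This class was made of cluster 13 (1232 cells, led by genes such as Nkg7 and Cd8b1) and the dividing cluster 40 (263 cells). Clusters 3 (1587 cells) and 24 (601 cells) each had 9 T cell markers in their top 100 genes but stayed unnamed. Their cells are not in these values, and the T cell-like class held 6.52% to 14.3% of the Cxcr6 UMIs. Cxcr4 averaged 557 ± 162 in B cell-like, 554 ± 268 in monocyte-like and 530 ± 192 in neutrophil-like cells, with overlapping values, and B cell-like cells were highest in 2 of 4 libraries. B cell-like cells led for Cxcr5 (110 ± 21.3) and Ccr6 (53.5 ± 10.6) and had Ccr7 at 505 ± 166, close to the dendritic level. Plasma cell-like cells carried Ccr10 (23.6 ± 9.89), and neutrophil-like cells, too few to test, Cxcr2 (365 ± 290).

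Low levels in these classes cannot be read as expression. Ccr7 in fibroblast-like cells, which should lack it, was 5.24 and 140 in the Cre libraries and 64.0 and 184 in the TKO libraries, and Cxcr4 was 5.84, 152, 82.8 and 190 in the same order. Cre library 1 was the low one for both, and it was also the deepest, with a median of 2562 UMIs in these cells against 1339 to 1490.5. The leading receptors of the endothelial-like, pericyte-like, smooth muscle-like, Schwann-like and mesothelial-like classes, which were Cxcr4, Ccr7 and Ackr3, therefore include Ccr7 and Cxcr4 at a level near that background.

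The anti-IL-9 comparison asked what blocking IL-9 changed in TKO aorta. In edgeR's quasi-likelihood test 12 of 35 members tested passed an adjusted p of 0.05, beside 32.1% of all 16463 genes tested, so the share of members called was close to the background. By direction, 4 members rose, beside 21.0% of all genes, and 8 fell, beside 11.0% of all genes. The median log2 fold change of the members was -0.72 and that of all genes -0.01. The 2 groups did not overlap for 20 of 35 members, beside 59.8% of all genes; 6 were higher (32.1% of all genes) and 14 lower (27.7%). Without anti-IL-9 replicate 1 the members called numbered 7. Bulk values are CPM of the library scaled by TMM. In tissue libraries, fewer cells of a type and less RNA per cell cannot be told apart.

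2 receptors rose most. Ackr1 (chr1:173331886-173333750) was at 4.88, 3.94 and 4.51 CPM with IgG and at 26.8 and 29.6 CPM with the antibody, a log2 fold change of 2.67 ± 0.15 (SE; adjusted p = 0.000172). Cxcr4 (chr1:128588199-128592293), the CXCL12 receptor, was at 12.3, 5.56 and 9.97 CPM with IgG and 72.2 and 58.2 CPM with the antibody (2.82 ± 0.30; adjusted p = 0.000555). The groups were far apart for both receptors. In the opposite direction, Cxcl12 (chr6:117168535-117181367), the ligand of CXCR4, was at 256, 268 and 209 CPM with IgG and 98.2 and 118 CPM with the antibody (-1.18 ± 0.17; adjusted p = 0.00232). Receptor and ligand thus moved oppositely in the same libraries. Ackr3, the other CXCL12 receptor, was at 84.3, 118 and 118 CPM against 50.5 and 94.1 CPM, and its groups overlapped (-0.57 ± 0.28; adjusted p = 0.167).

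The CCR1 ligands made in macrophage-like cells fell. Ccl6 (chr11:83587882-83593087) was at 68.4, 130 and 93.5 CPM with IgG and 28.0 and 21.4 CPM with the antibody (-1.97 ± 0.29; adjusted p = 0.00236). Its neighbour Ccl9 (chr11:83572919-83578636) was at 43.1, 86.9 and 51.0 against 15.2 and 12.6 CPM (-2.12 ± 0.32; adjusted p = 0.00282). Both were lower in each anti-IL-9 library than in any IgG library. Their receptor Ccr1 was at 3.45, 8.62 and 5.27 against 1.64 and 0.820 CPM (-2.21 ± 0.50; adjusted p = 0.0154). Ccr2, the monocyte receptor, was at 14.9, 35.6 and 10.3 against 7.13 and 3.33 CPM (-1.94 ± 0.58; adjusted p = 0.0420). None of its 3 ligands passed. Ccl2, for example, was at 1.38, 3.85 and 3.07 against 1.28 and 0.765 CPM (-1.41; adjusted p = 0.0754).

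Of the eotaxin group, Ccl8 was at 11.3, 30.5 and 7.02 CPM with IgG and 2.52 and 1.37 CPM with the antibody (-3.04 ± 0.69; adjusted p = 0.0155), and Ccl11 at 23.7, 13.1 and 16.7 against 8.77 and 10.8 CPM (-0.87 ± 0.26; adjusted p = 0.0441). The groups did not overlap for either gene. The tethered ligand Cxcl16 was at 11.0, 13.5 and 9.03 against 7.57 and 5.69 CPM (-0.75 ± 0.24; adjusted p = 0.0490). Ccl24 (-0.98; adjusted p = 0.0918), the epithelial ligand Cxcl14 (-1.03; adjusted p = 0.0897) and the CXCR3 ligand Cxcl9 (-0.77; adjusted p = 0.0976) did not pass.

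Not every myeloid gene moved down. Cx3cr1, the receptor of CX3CL1 on monocytes and resident macrophages, was at 4.62, 5.38 and 3.57 CPM with IgG and 9.05 and 7.05 CPM with the antibody (0.83 ± 0.25; adjusted p = 0.0406), opposite in direction to Ccr1 and Ccr2. Ccl27a, an epithelial CCR10 ligand whose near-identical copy Ccl27b makes its reads uncertain, was at 7.53, 8.30 and 9.84 against 11.7 and 14.2 CPM (0.60 ± 0.19; adjusted p = 0.0474). Ackr1, Cxcr4, Ccl6, Ccl9 and Cxcl12 stayed past the threshold under every alternative tried. Leaving out 1 library or changing the tool raised the adjusted p of the other 7 above 0.05: Ccl27a reached 0.0683 with DESeq2 and at most 0.196 without 1 library, Cxcl16 0.177, Cx3cr1 0.201, Ccl11 0.189, Ccr2 0.172, Ccl8 0.0834 and Ccr1 0.0701.

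**Figure D2:**
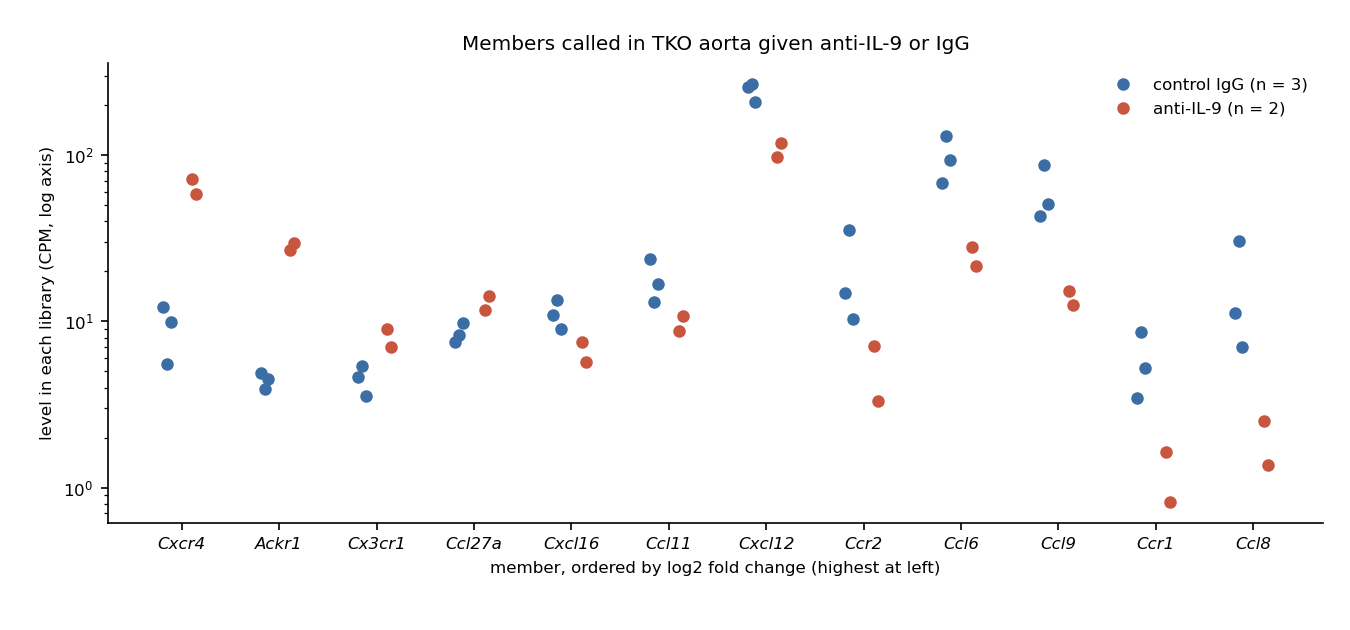
CPM on a log axis of the 12 members past the adjusted p threshold, side by side along the horizontal axis, with each point a library of TKO aorta given IgG (n = 3) or anti-IL-9 (n = 2). Ackr1 at 26.8 and 29.6 CPM and Cxcr4 at 72.2 and 58.2 CPM stand far above their IgG libraries, while Ccl6 and Ccl9 lie below theirs.

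Anti-IL-9 replicate 1 stood apart from replicate 2 for members of lymphocytes and dendritic cells. Ccr7 was 4.93 CPM there and 0.219 in replicate 2, with 0.637 to 0.878 in IgG libraries. Ccl5 was 7.89 against 0.601 CPM, Ccl22 2.36 against 0.437 CPM, and Cxcr5, the CXCL13 receptor of B cells, 5.17 against 2.57 CPM. None of the 4 passed the test. In the same library T cell markers summed to 79.7 CPM and B cell markers to 137 CPM, against 10.1 and 24.1 CPM in replicate 2.

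Markers of whole cell types moved with these results. Macrophage markers summed to 488.8 to 829 CPM with IgG and to 218.9 and 222.8 CPM with the antibody (8 of 10 tested fell), and fibroblast markers to 5689 to 12680 CPM against 2955 and 2198 CPM (9 of 11 fell). Endothelial markers, from the class in which Cxcl12 was highest, summed to 1135 to 1351 against 565.5 and 707.1 CPM (8 of 10 fell), and mesothelial markers to 142.9 to 322.3 against 8.733 and 6.997 CPM (8 of 8 fell). Sympathetic neuron markers summed to 212.4 to 481.7 against 3458 and 3514 CPM (6 of 6 rose), Schwann cell markers to 183.3 to 214 against 539.5 and 557.3 CPM (8 of 9 rose), and smooth muscle markers to 595.4 to 912.5 against 1578 and 1582 CPM (6 of 8 rose). Cxcr4 was high in B cell-like, monocyte-like and neutrophil-like cells. B cell markers summed to 6.63 to 15.7 against 137 and 24.11 CPM (4 of 7 rose). Monocyte markers summed to 111.9 to 187.7 against 74.23 and 51.72 CPM (3 of 6 fell), and neutrophil markers to 288.2 to 340.2 against 150.8 and 239 CPM (4 of 5 fell). Ackr1 rose while the markers of the fibroblast-like class that led for it fell. Cx3cr1 rose while macrophage and monocyte markers did not rise (0 of 10 and 0 of 6). Of all genes tested, 21.0% rose and 11.0% fell. The part of these markers in the changes of the members was not tested.

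Genes that work beside the chemokines were counted from lists of other chemotactic molecules, G proteins and arrestins, signalling proteins below the receptor, and enzymes that trim chemokines. With anti-IL-9, 7 of 13 other chemotactic genes fell, beside 11.0% of all genes, and none rose, beside 21.0%. Those that fell included the chemerin gene Rarres2 (-1.22), its receptor Cmklr1 (-1.27) and the sphingosine receptor S1pr1 (-1.12). The platelet chemokine Pf4 (-1.39) and the complement receptor C5ar1 (-1.59) fell too. Of 6 processing enzymes 4 fell, beside 11.0% of all genes, including the peptidase Dpp4, which inactivates CXCL12 (-2.16), and Mmp9 (-2.49). Of 16 G protein genes 2 rose, Gng2 (2.87) and Gnb1 (0.51), beside 21.0% of all genes. Of 20 signalling genes 6 rose, including Prkcb (1.81) and Mapk3 (1.53), beside the same 21.0%, and 1 fell, Jak3 (-1.07), beside 11.0%.

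In the 3 comparisons of TKO with Cre, no gene of these 4 lists passed edgeR's test. In the order in which the lists were introduced, unadjusted p-values under 0.05 numbered 0 of 12, 4 of 15, 2 of 20 and 2 of 6 in non-stripped aorta, where 17.9% of all genes had one. They numbered 6 of 14, 3 of 16, 5 of 20 and 0 of 6 in stripped aorta (13.8% of all genes), and 7 of 14, 2 of 15, 6 of 20 and 4 of 7 in fibroblasts (12.1%). DESeq2 called 0, 0, 1 and 0 in non-stripped aorta (4.85% of all genes), 4, 1, 1 and 0 in stripped aorta (3.24%), and 3, 1, 5 and 2 in fibroblasts (2.95%).

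In non-stripped aorta, no member differed between TKO and Cre by edgeR's adjusted p (0 of 31 tested, beside 0.119% of 15162 genes). At an unadjusted p under 0.05 there were 6 members, beside 17.9% of all genes, and DESeq2 called 0 of 37, beside 4.85% of all genes. Groups did not overlap for 6 of 31 members, beside 25.5% of all genes; 2 were higher in TKO (14.9% of all genes) and 4 lower (10.6%). Per kilobase of exon the highest members were Ackr3 (37.0 CPM per kb), Cxcl12 (19.5), Ccl11 (12.3) and Ccl6 (11.6). Ccl27a was at 14.5, 14.3 and 15.7 CPM in Cre and 11.0, 11.6 and 9.41 CPM in TKO (-0.47 ± 0.12; adjusted p = 0.104). Cxcr4 was at 5.78, 5.16 and 5.68 against 8.04, 7.07 and 7.73 CPM (0.46 ± 0.14; adjusted p = 0.141). The 3 libraries of each genotype were tight and apart for both genes, but the differences were small and did not pass.

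The CXCR2 ligand Cxcl1 was at 1.28, 0.691 and 0.751 CPM in Cre and 3.82, 1.02 and 2.67 CPM in TKO, and these groups overlapped (1.43 ± 0.48; adjusted p = 0.180); without TKO replicate 2 its adjusted p was 0.0446 and 2 members were called, and without the TKO library that lacked Klf10 none was. Cx3cr1 was at 3.84, 4.25 and 5.82 against 2.91, 3.61 and 2.21 CPM (-0.67 ± 0.25; adjusted p = 0.214). Cxcl9 (-0.78 ± 0.32; adjusted p = 0.247) and Ccl9 (0.38 ± 0.16; adjusted p = 0.276) did not pass either. Macrophage markers summed to 172.1 to 230.1 CPM in Cre and 188.3 to 252 CPM in TKO. Skeletal muscle markers stood at 370.4 to 1338 CPM in Cre and 3958 to 15830 CPM in TKO, and endothelial markers at 1024 to 1169 against 822 to 919.9 CPM, and their part was not tested.

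In stripped aorta no member passed either (0 of 40, beside 0.0240% of 16688 genes). The unadjusted p was under 0.05 for 7, beside 13.8% of all genes. DESeq2 called 4 of the 41 members to which it gave an adjusted p, beside 3.24% of all genes, and all were lower in TKO: Ackr3, Ccr1, Ccl12 and Ccl24. Groups did not overlap for 8 of 40, beside 23.6% of all genes; 3 were higher in TKO (12.0%) and 5 lower (11.6%). Per kilobase Ackr3 (87.4 CPM per kb), Ccl6 (78.6), Cxcl12 (48.5) and Ccl9 (41.3) were highest, on a scale set within this table.

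Ackr3 was at 328, 317, 313 and 370 CPM in Cre and 215 and 211 CPM in TKO (-0.64 ± 0.11; adjusted p = 0.138 in edgeR and 3.04e-05 in DESeq2). No TKO library came near the Cre range. Ccr1 was at 19.2, 24.95, 29.6 and 19.6 against 13.9 and 7.16 CPM (-1.15 ± 0.30; adjusted p = 0.216 in edgeR and 0.00674 in DESeq2), and the CCR2 ligand Ccl12 at 16.4, 12.1, 7.32 and 8.26 against 4.75 and 4.08 CPM (-1.32 ± 0.35; adjusted p = 0.219 and 0.00777). Ccl24 was at 19.2, 13.0, 12.5 and 10.8 against 6.45 and 8.13 CPM (-0.93 ± 0.26; adjusted p = 0.222 and 0.0244). The scavenger Ackr2 was at 14.4, 17.1, 12.6 and 12.9 against 9.90 and 8.43 CPM (-0.64 ± 0.17; adjusted p = 0.221). These 5 separate the genotypes library by library without passing edgeR's test.

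Cxcl2 was at 12.6, 11.1, 1.16 and 2.08 CPM in Cre and 46.8 and 18.4 CPM in TKO (2.27 ± 0.85; adjusted p = 0.314), whereas Cxcl1, its neighbour, was at 24.2, 12.6, 6.13 and 3.29 against 9.94 and 61.4 CPM. TKO replicate 1 was the higher for Cxcl2 and replicate 2 for Cxcl1. Cxcl13 did not pass (1.33 ± 0.49; adjusted p = 0.313). Immediate early genes summed to 1092 to 5629 CPM in Cre and 1029 and 4585 CPM in TKO. Mesothelial markers summed to 63.97 to 173.4 against 24.91 and 30.64 CPM, adipocyte markers to 901.4 to 1754 against 3296 and 2145 CPM, and T cell markers to 7.493 to 16.05 against 13.9 and 144.9 CPM. Macrophage markers summed to 1408 to 1993 against 1621 and 1322 CPM, with 1 of 10 above 0 in difference. Of these 10, 3 had an unadjusted p under 0.05 (13.8% of all genes) and DESeq2 called 1 (3.24%). Smooth muscle markers summed to 6498 to 7632 against 3955 and 5973 CPM, with 0 of 8 above 0. Their part in the differences was not tested.

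Whether the genotype difference itself differed between non-stripped and stripped aorta was tested in 1 model of both tables. No member passed (0 of 41, beside 0.00571% of 17501 genes); 3 had an unadjusted p under 0.05, beside 18.2% of all genes, and DESeq2 called 2 of 37, beside 5.56% of all genes. These 3 were Ccl12 (2.21 ± 0.57; adjusted p = 0.109), Ccr1 (1.94 ± 0.55; adjusted p = 0.120) and Ccl27a (-0.55 ± 0.18; adjusted p = 0.153), where a positive value means a higher TKO to Cre ratio in non-stripped aorta.

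**Figure D3:**
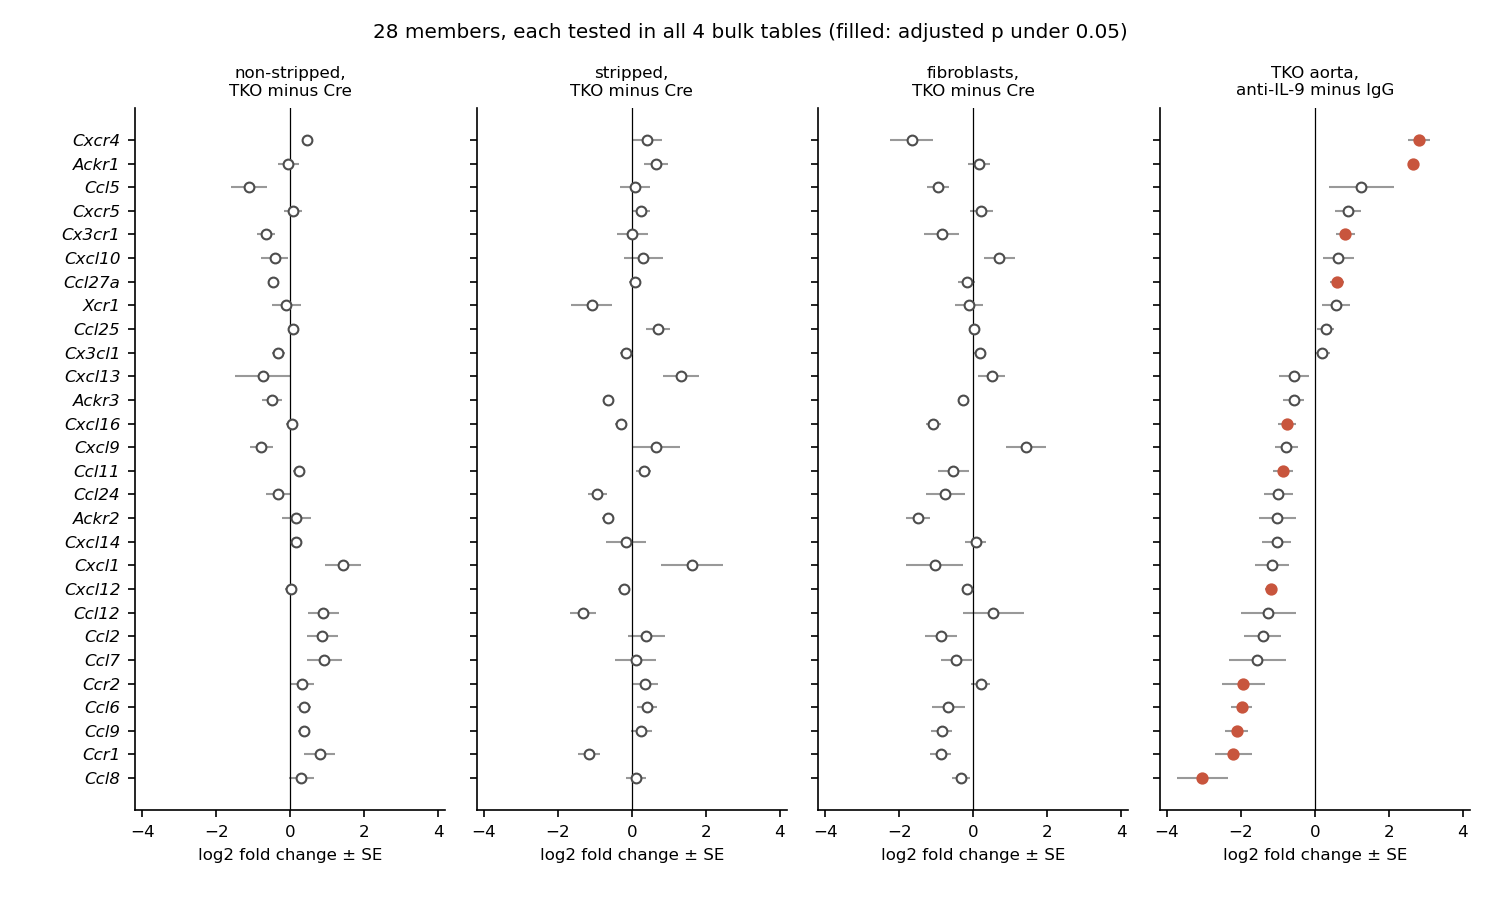
Log2 fold change ± SE of 28 members, each tested in all 4 bulk tables, 1 panel per comparison, with filled points past an adjusted p of 0.05 and open points not. Filled points appear in the anti-IL-9 panel alone, with Ackr1 and Cxcr4 above 2 and Ccl8, Ccr1 and Ccl9 below -2.

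In aortic fibroblasts, no member passed edgeR's adjusted p (0 of 38, beside 0.0638% of 15673 genes). An unadjusted p under 0.05 was reached by 8, beside 12.1% of all genes, and DESeq2 called 2 of 34, Cxcl16 and Ccr1, beside 2.95% of all genes. The median member difference was -0.46 on the log2 scale, with 12 of 38 above 0, and the median over all genes was 0.01. Groups did not overlap for 6 of 38, beside 17.3% of all genes; 1 was higher in TKO (8.86%) and 5 lower (8.45%). Per kilobase these libraries were led by Cxcl5 (203.7 CPM per kb), Ccl2 (156.0), Ccl7 (78.6), Cxcl1 (45.9) and Cxcl12 (40.5).

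Cxcl16, the tethered ligand of CXCR6, was at 22.1, 37.8 and 29.97 CPM in Cre fibroblasts and 16.7, 11.8 and 14.02 CPM in TKO fibroblasts (-1.08 ± 0.20; adjusted p = 0.191 in edgeR, 3.4e-05 in DESeq2 and 0.0131 when all 4 tables shared 1 estimate of the spread). The ranges were apart. Ccl5 was at 2.29, 4.52 and 2.46 against 1.65, 1.45 and 1.69 CPM (-0.95 ± 0.29; adjusted p = 0.282). Ackr3, the scavenger for which fibroblast-like cells led, was at 39.8, 48.5 and 46.2 against 37.9, 36.9 and 36.3 CPM (-0.28 ± 0.09; adjusted p = 0.289). Each of these 3 was lower in every TKO library than in any Cre library.

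Members of macrophages were also measured in these libraries. Ccl9 was at 66.9, 146 and 108 against 65.2, 67.9 and 44.1 CPM (-0.86 ± 0.27; adjusted p = 0.289), Ccr1 at 10.7, 22.6 and 15.4 against 10.9, 8.75 and 6.78 CPM (-0.88 ± 0.28; adjusted p = 0.288 in edgeR and 0.0249 in DESeq2), and Cxcr4 at 7.20, 21.4 and 4.86 against 5.78, 2.13 and 2.60 CPM (-1.67 ± 0.59; adjusted p = 0.325). Cre replicate 2 was highest for all 3 genes. Without 1 library the Cxcr4 difference was as small as -0.79. Macrophage markers summed to 255 to 565.9 CPM in Cre and 153.7 to 207 CPM in TKO, with 0 of 10 above 0 in difference and 0 past edgeR's threshold (8 at an unadjusted p under 0.05, 3 by DESeq2). Their part was not tested.

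A second pattern crossed the genotypes. Cxcl5 was at 153, 140 and 1078 CPM in Cre and 294, 505 and 107 CPM in TKO, Cxcl1 at 43.3, 35.4 and 269 against 56.9, 86.4 and 25.4 CPM, and Cxcl3 at 26.2, 41.2 and 108 against 44.7, 47.5 and 22.5 CPM. Cre replicate 3 was the highest and TKO replicate 3 the lowest of the 6 libraries for each. Cxcl2 (6.38, 8.66 and 16.7 against 7.98, 8.38 and 4.00 CPM), Ccl2 (120, 180 and 391 against 107, 181 and 86.7 CPM) and Ccl7 (43.7, 52.5 and 122 against 40.9, 79.2 and 39.1 CPM) had the same highest and lowest library, and so had Ccl11 (3.01, 4.21 and 9.78 against 4.19, 4.75 and 2.72 CPM). In all, 10 of 38 members tested (26.3%) shared this order, namely Ccl2, Ccl3, Ccl6, Ccl7, Ccl11, Ccl24, Cxcl1, Cxcl2, Cxcl3 and Cxcl5, and 470 of 15673 genes did (3.00%). The order was noted after the values were seen and is given with no test. Cxcl12, in contrast, ranged only from 296 to 381 CPM. Interferon response genes followed the same order, with sums of 71.07, 82.05 and 146.9 CPM in Cre and 131.6, 118.5 and 61.72 CPM in TKO (of 10 tested, 0 passed edgeR's or DESeq2's adjusted test and 0 had an unadjusted p under 0.05). Immediate early genes summed to 663.1 to 794.5 CPM in Cre and 698 to 713.8 CPM in TKO. The part of either list in the pattern was not tested. In fibroblast-like single cells of the whole aorta Cxcl5 averaged 3.64 CPM and Cxcl1 265 ± 81.4, so Cxcl5 was the lower of the pair there and the higher in the isolated fibroblasts.

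**Figure D4:**
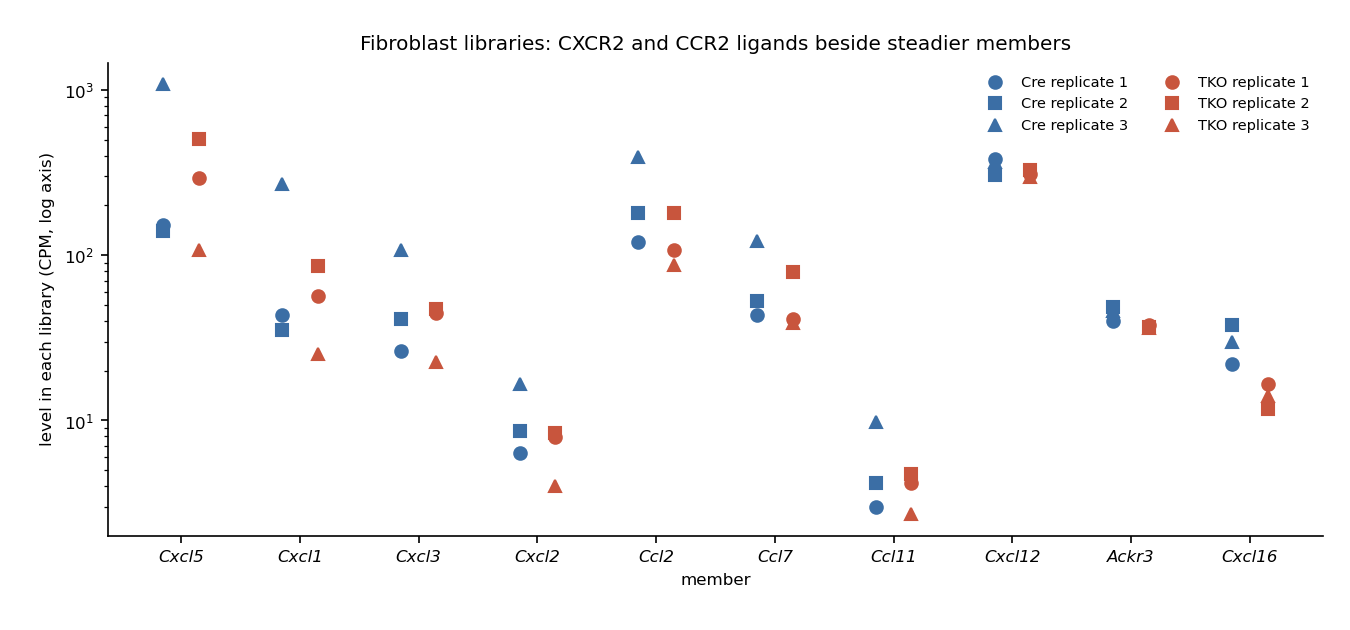
CPM on a log axis of 10 members in the 3 Cre and 3 TKO fibroblast libraries, with 1 point per library. Cre replicate 3 reaches 1078 CPM of Cxcl5 and 269 CPM of Cxcl1 while TKO replicate 3 is at 107 and 25.4 CPM, and Cxcl12 stays between 296 and 381 CPM.

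Between the antibody and the genotype comparisons, Cxcr4 was higher in TKO than Cre non-stripped aorta (0.46, not passing) and rose with anti-IL-9 (2.82). Cx3cr1 and Ccl27a were lower in TKO (-0.67 and -0.47, not passing) and rose with anti-IL-9 (0.83 and 0.60). Ccl9 was higher in TKO (0.38, not passing) and fell with anti-IL-9 (-2.12). Cxcl1 was higher in TKO and lower with anti-IL-9 (1.43 and -1.15, neither passing). Cxcl9 was lower in both (-0.78 and -0.77, neither passing). These tables share no library and were normalized apart, and the difference between the comparisons was not tested.

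In single cells the genotypes were compared on UMI sums per class and library, 2 Cre against 2 TKO. Of 281 tests of a member in a class, 1 passed an adjusted p of 0.05 in edgeR, beside 0.173% of all 87830 gene tests in the 14 classes. In fits that leave a lone library in 1 group, the number called was 11 of 299 without Cre library 1 (0.260% of all gene tests), 108 of 346 without Cre library 2 (4.10%), 6 of 277 without TKO library 1 (0.196%) and 10 of 343 without TKO library 2 (0.489%). The 1 call was Ccl8 in monocyte-like cells, where 0.529% of 4541 genes were called. This class is cluster 17, led by Chil3, Mmp12, Il1b and Mmp13 and named from 3 monocyte markers, the minimum for a name. Ccl8 was at 63.1 and 63.2 CPM in Cre and 216 and 532 in TKO (2.42 ± 0.45; adjusted p = 0.0156). These levels rest on 125 and 5 UMIs in 622 and 44 Cre cells and on 113 and 57 UMIs in 296 and 70 TKO cells, so the second Cre value has 5 molecules behind it. The call held under each alternative that could test this class (with the stricter cell filter too few cells were left), with log2 fold changes of 1.69 to 3.03 and adjusted p up to 0.0494.

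Ccl8 was far more abundant in macrophage-like cells, at 1275 and 1411 in Cre and 3419 and 4144 in TKO (1.48 ± 0.32; adjusted p = 0.0983 in edgeR and 9.94e-05 in DESeq2), where 0.843% of 9129 genes were called. Without Cre library 1, which held 2147 of the macrophage-like cells, the adjusted p was 0.900. The class was made of clusters filled unequally by the libraries. Cluster 1, with Cd163 and Folr2 of resident macrophages, had 1987 cells of Cre library 1 and 6, 40 and 13 of the others, and cluster 2 had 127 and 200 Cre cells and 1029 and 457 TKO cells. Within cluster 1 Ccl8 was 1266 and 2544 in Cre and 4390 and 4993 in TKO, and within cluster 2 it was 987 and 1480 against 2285 and 2473. In cluster 39, led by the interferon-induced Ifit1, Ifit2, Ifit3 and Rsad2, it was 2545 and 781 against 8880 and 10590. Both TKO libraries were thus above both Cre libraries in each of the 3 clusters, a split chosen after the class values were seen. In cluster 1 the values outside Cre library 1 rest on 35, 472 and 121 UMIs. These came from 6, 40 and 13 cells, too few to compare the genotypes there. The part of the cluster makeup in the class difference was not tested.

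**Figure D5:**
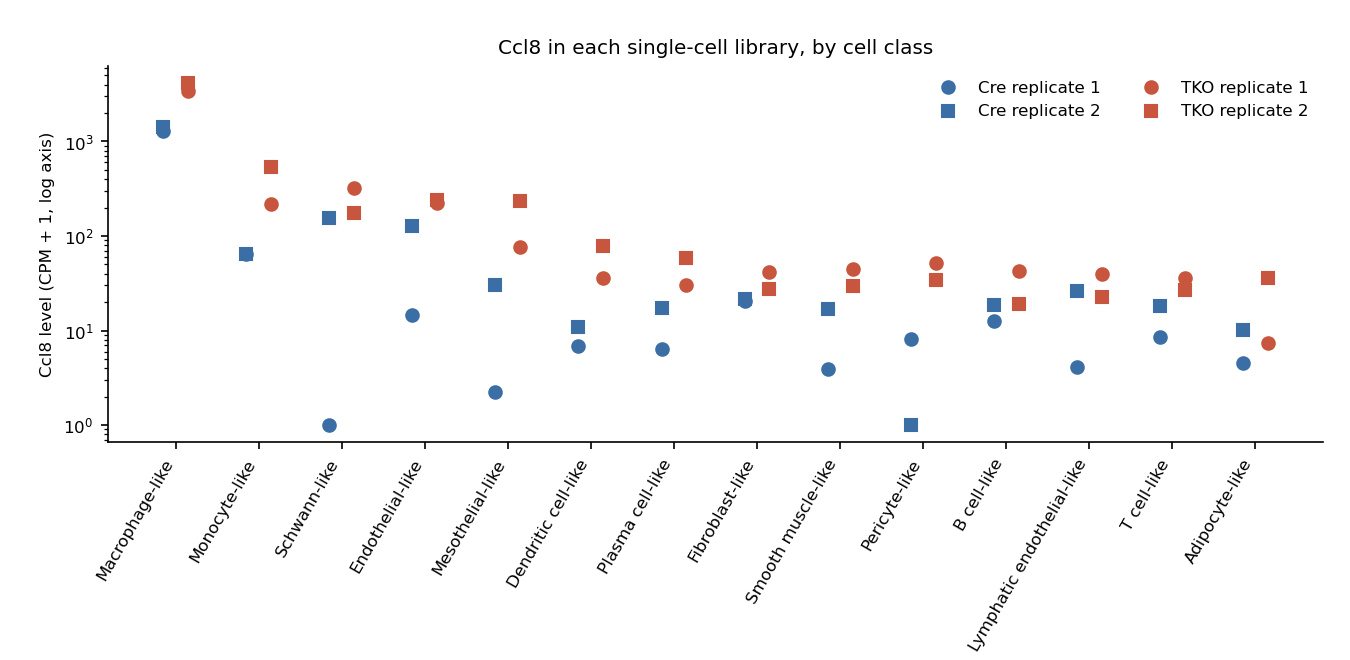
Ccl8 in CPM of UMIs plus 1, on a log axis, in each single-cell class, with 1 point per library (2 Cre, 2 TKO). Macrophage-like cells are highest, at 1275 and 1411 in Cre and 3419 and 4144 in TKO, and monocyte-like cells follow at 63.1 and 63.2 against 216 and 532.

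Other RNA moved with Ccl8 in these classes. Fibroblast markers summed to 502 and 695 CPM in Cre monocyte-like cells and 2534 and 3162 in TKO ones, and to 364 and 899 against 2685 and 1943 in macrophage-like cells. Macrophage markers in monocyte-like cells summed to 7747 and 5532 in Cre and 5017 and 3926 in TKO. Interferon response genes in macrophage-like cells summed to 538 and 883 against 1111 and 1232. In T cell-like cells, which should lack Ccl8, it was 7.49 and 17.2 in Cre and 34.6 and 26.1 in TKO, and over all cells it was 254 and 163 against 483 and 545. The part of these in the result was not tested. Bulk non-stripped aorta had Ccl8 at 1.86, 1.60 and 2.54 CPM in Cre and 3.01, 3.00 and 1.34 CPM in TKO (0.30 ± 0.34; adjusted p = 0.658).

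Several further members had a low unadjusted p in a class without passing. In macrophage-like cells Ccr2 was 113 and 107 in Cre and 242 and 203 in TKO (1.01 ± 0.21; adjusted p = 0.0857). Within cluster 2 the genotypes overlapped, with Ccr2 at 299.7 and 122 against 252 and 149. In cluster 1 Ccr2 was 106 and 0 against 93.0 and 82.5. Outside Cre library 1 these values rest on 0, 10 and 2 UMIs in 6, 40 and 13 cells, too few to compare the genotypes. In cluster 39 Ccr2 was 77.9 and 50.9 against 241 and 432, with 9 and 3 UMIs behind the Cre values. In monocyte-like cells Cxcl1 was 752 and 745 against 336 and 261 (-1.38 ± 0.31; adjusted p = 0.0654), Ccl3 was 574 and 859 against 239 and 307.8 (-1.47 ± 0.35; adjusted p = 0.0857), and the stromal Cxcl12 was 12.1 and 12.6 against 57.2 and 83.9 (2.35 ± 0.55; adjusted p = 0.0721). Cxcl1 and Ccl3 were thus lower, and Cxcl12 higher, in monocyte-like cells of both TKO libraries than of either Cre library. In this class 3 UMIs equal 37.9 CPM in Cre library 2 and 28.0 CPM in TKO library 2. The second Cre value of Cxcl12 lies below that level. Fibroblast markers were also higher in the TKO monocyte-like cells, as given above, and their part was not tested. In B cell-like cells Cxcl13, whose receptor Cxcr5 they carry, was 3.62 and 5.25 against 22.4 and 93.8 (3.60 ± 0.75; adjusted p = 0.0637), with 0.488% of 7579 genes called in that class, and Ackr3 did not pass (1.99; adjusted p = 0.1504). In fibroblast-like cells Ackr2 was 49.6 and 46.4 against 17.2 and 24.99 (-1.21 ± 0.28; adjusted p = 0.573). Both classes were filled unequally: B cell-like cluster 12 had 1180 cells of Cre library 1 and 32, 24 and 5 of the others, and fibroblast-like cluster 9 had 69 and 48 Cre cells and 831 and 348 TKO cells. The part of this makeup in the values was not tested.

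Further from the threshold were Ccl21a in macrophage-like cells (1.89; adjusted p = 0.104), Ccl19 in adipocyte-like cells (2.88; adjusted p = 0.380) and Ccl8 in dendritic cell-like (2.71; adjusted p = 0.476) and mesothelial-like cells (3.89; adjusted p = 1.00). The members with the lowest unadjusted p in the endothelial-like (Ccl12, Cx3cr1 and Ccr1), lymphatic endothelial-like (Cxcl2 and Ccl4), Schwann-like (Cxcl13), dendritic cell-like (Ccl7 and Cxcl12) and smooth muscle-like classes (Ackr3) had adjusted p-values of 0.638 or more. Most of these are genes led by another class, such as the macrophage ligand Ccl12 in endothelial-like cells, at 2.14 and 5.32 in Cre and 16.2 and 43.0 in TKO.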

How the data were processed

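Bulk RNA was measured in 23 libraries and single cells in 4. The deposited bulk values are raw counts per gene, made by the authors with Trimmomatic 0.36, STAR 2.5.2b and featureCounts of Subread 1.5.2 on GRCm38, per the submitters' processing notes. The deposited single-cell values are UMI counts from Cell Ranger, per the file headers. The row with no gene name was left out, at most 0.0025% of the counts of any library, and 1 column that no label identified was not used.

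Each bulk table was fitted alone with edgeR 4.0.16 (R 4.3.3): filterByExpr with a minimum count of 10, TMM scaling, the quasi-likelihood test, and Benjamini-Hochberg adjustment over all genes tested, with calls at 0.05. Cells were kept with at least 500 genes, 1000 UMIs and at most 15% mitochondrial UMIs. Simulated doublets were scored and called at a rate of 0.8% per 1000 cells and removed. The cells were clustered on 2000 variable genes without the members (30 components, 20 neighbours, Leiden resolution 1.5). Clusters were named from markers, and UMIs were summed per class and library for edgeR. Alternatives were DESeq2 1.42.0, RLE scaling, no filter on low counts, a joint fit, kept doublets, a stricter cell filter, a replicate block and leaving out each library. The fits were tested on simulated data.

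The members and lists were chosen with earlier results of these data known. Named were called members; further members with an unadjusted p under 0.05 and at least 1 CPM in bulk, up to 25; in classes up to 3 with an unadjusted p under 0.01 and at least 10 CPM; and leading members of each class. Members with under 5 bulk counts were only counted. The values of 1 member are not reported here.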

Additional observations from a re-analysis of the deposited data

How the results depend on the processing

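Of 542 recomputed values for 58 named pairs of member and comparison, 431 kept their direction and side of the threshold, 85 passed it only under the alternative, 26 no longer passed, and none reversed. The main counts of members called were 0 in non-stripped aorta, stripped aorta, fibroblasts and the test of the difference between tissues, 12 with anti-IL-9 and 1 in single cells. DESeq2 called 4 in stripped aorta, 2 in fibroblasts, 2 in the test of the difference and 3 in single cells. The joint fit called 1 in stripped aorta and 1 of 45 in fibroblasts, where 24 of 19065 genes were called higher and 42 lower. Without a filter on low counts 7 of 54 were called in fibroblasts, where 218 of 30122 genes were called higher and 464 lower. The same setting called 26 with anti-IL-9 and 39 in single cells. Kept doublets gave 5 in single cells. Leaving out 1 library gave 0 to 2 in non-stripped aorta (2 without TKO replicate 2), 7 to 10 with anti-IL-9 and 6 to 108 in single cells (11 without Cre library 1, 108 without Cre library 2, 6 without TKO library 1 and 10 without TKO library 2), where the lone library left is assumed to vary like the other group. The fit with a replicate block called 15 in single cells. Deviations of same-numbered single-cell libraries correlated at -0.030 to 0.468 over 14 classes and above 0.1 in 11 of them. With 2 pairs, and no label of a shared source, this is a hint from the data and was not taken as a pairing by design. Where no share of all genes stands beside a count here, the count describes the fit and is no result about the members. The causes of these shifts were not tested. The single-cell sums rest on few cells in some classes, down to 21 cells of 1 library.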

Other observations

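2 small clusters that no marker list named had high chemokine levels. Cluster 41 (239 cells), led by Alox15, Saa3, Serpinb2 and Prg4, averaged 9337 ± 2309 CPM of Cxcl2 over 4 libraries, 2639 of Cxcl1 and 1265 of Cxcl13. These levels were above the mean of every named class for the same genes. Cluster 46 (136 cells), which carries Siglech, averaged 3849 of Ccl4 and 810 ± 206 of Ccr9, the receptor of the gut and thymus ligand CCL25. Both clusters were singled out after their values were seen and are given with no test.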
